A study of Rattus norvegicus with 2 samples.

Results

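Dntt-positive pro-B cells made up 467 of the 14858 cells that passed the quality limits in 2 single-cell RNA sequencing libraries of rat meniscus, the fibrocartilage of the knee. They were chosen by raw counts of unique molecular identifiers (UMIs, which count captured transcripts). A member had at least 500 detected genes, at most 20% of its UMIs from the 13 mitochondrial genes, at least 2 UMIs of Dntt, no UMI of Tnfrsf17 and fewer than 2 UMIs over Cd3e, Cd3d and Cd3g. Tnfrsf17 is a receptor of plasma cells and the Cd3 genes encode subunits of the T cell receptor complex. Since counts of Dntt chose the cells, their number and their level of Dntt are descriptions.

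Dntt encodes terminal deoxynucleotidyl transferase, a polymerase that adds nucleotides without a template at the joints of rearranging antigen receptor genes. In bone marrow it marks pro-B cells, in which the RAG1 and RAG2 recombinase assembles the immunoglobulin heavy chain gene. Igll1 (lambda 5) and the VpreB proteins form the surrogate light chain, which pairs with the new heavy chain in the pre-B receptor; the cells then divide, stop making the surrogate light chain and rearrange a light chain gene.

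The study compared the cells of the meniscus between an aged and a young group, with 1 library for each age. Cells came from minced tissue digested with protease and collagenase P, were sorted by flow cytometry for viability and were captured with 10x Genomics 3' chemistry, which reads the 3' end of each transcript. No genotype, treatment, strain, sex or age in months was labelled for either library, and how many animals each one drew on was not stated. With 1 library per age there was no replicate check of any aged over young value, and age cannot be told apart from library, animal or preparation. All intervals given are 95% intervals that cover counting error only.

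The aged library held 8422 barcodes and 47228750 UMIs, of which 6085 barcodes passed the limits, and the young library held 9914 barcodes and 65051972 UMIs, of which 8773 passed. The libraries shared 18 barcodes; no barcode was a member in both, and 2 members of 1 library were listed in the other. Pro-B cells numbered 150 in the aged library, 2.47% of its passing cells (exact Clopper-Pearson interval 2.09 to 2.89), and 317 in the young library, 3.61% (3.23 to 4.03). With each cell thinned to 2000 UMIs before the rule was applied, the shares were 1.78% in the aged and 2.82% in the young library. Among B lineage cells, those with at least 2 UMIs over Cd79a and Cd79b, they were 4.88% in the aged (125 of 2560) and 4.89% in the young library (304 of 6223). The condition also applied to the pro-B cells and kept 125 of 150 aged and 304 of 317 young ones. The gap in share over all cells was not seen with these shares, in which numerator and denominator both changed. Among the cells of the 4 B lineage groups defined below they were 13.0% in the aged (11.1 to 15.0) and 8.39% in the young library (7.53 to 9.32), which is the opposite direction. Per 100 surrogate light chain cells there were 51.4 of them in the aged and 102 in the young library. Both comparisons depend on the rules that chose those cells. Without the Cd3 limit, surrogate light chain cells numbered 350 rather than 292 in the aged and 522 rather than 311 in the young library. Pro-B cells then numbered 156 in the aged and 357 in the young library. With Vpreb2 also counted and the Cd3 limit kept, surrogate light chain cells numbered 294 in the aged and 357 in the young library. The members held 1018000 UMIs in the aged and 3474446 in the young library. Median depth was 5533 UMIs per member in the aged library (range 1054 to 47957) and 7961 in the young library (range 951 to 84632).

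Dntt was found at 2 to 22 UMIs per member, with a median of 5, in the aged library and at 2 to 68 UMIs, with a median of 11, in the young library. Just inside the threshold, at exactly 2 Dntt UMIs, were 31 aged and 18 young cells, and 87.1% of the aged and 77.8% of the young ones held a UMI of Igll1, Vpreb1 or Vpreb2. Just outside, at exactly 1 UMI, were 50 aged and 92 young cells, and 50% of the aged and 27.2% of the young ones held such a UMI. Of 161 aged and 370 young barcodes with at least 2 Dntt UMIs, the gene and mitochondrial limits removed 4 aged and 12 young, Tnfrsf17 removed 1 in each library, and the Cd3 limit removed a further 6 aged and 40 young.

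The label was checked against the other marker genes of the pro-B stage. At least 1 UMI of a surrogate light chain gene was found in 142 aged members (94.7%) and 306 young members (96.5%). After thinning to 2000 UMIs, Igll1 was seen in 71.9% of aged and 85.0% of young pro-B cells, and Lef1, a transcription factor of early lymphocytes, in 47.9% of aged and 55.4% of young pro-B cells. Erg, an ETS transcription factor of stem and early lymphoid cells, was seen in 30.8% of aged and 34.4% of young pro-B cells. In granulocytes, which should lack Igll1 and so show its level of free RNA, the thinned share was 0.304% in aged and 0.633% in young cells. Erg was seen in 3.19% of aged and 3.16% of young granulocytes, at 17.9 CPM (UMIs per 1000000 summed UMIs) in aged and 15.1 in young ones; this is above its level in surrogate light chain cells, given below, so it was not read as free RNA. Median depth in granulocytes was 3072 UMIs in the aged and 3492 UMIs in the young library. Ebf1, the transcription factor that commits progenitors to the B lineage, had 514 CPM in aged and 491 CPM in young pro-B cells.

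Some members did not carry the whole pattern. At least 2 UMIs of Mpo, the myeloperoxidase of granulocyte precursors, were found in 9 aged members, 3 of them with a surrogate light chain UMI, and in 28 young members, 17 of them with one. The receptors of earlier progenitors were low: Flt3 had 8.84 CPM in aged and 6.33 in young pro-B cells, and Kit had 0.982 CPM in aged and 7.48 in young pro-B cells. Pax5, the transcription factor of B lineage identity, had 11.8 CPM in aged and 5.76 in young pro-B cells, and it was also low in the later Ms4a1 cells described below, at 8.55 CPM in aged and 37.9 in young ones. Vpreb3 and Mme had no UMI in the members of either library, which allows up to 2.95 CPM in aged and 0.863 in young pro-B cells (a floor of 3 counts).

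The sequences just upstream of the genes that define the stage are shown because the clearest aged and young difference among them lay between the copies Vpreb1 and Vpreb2, which RefSeq lists as Vpreb1a and Vpreb1b. Each runs from 250 bases before to 50 bases after the annotated start, 5′ to 3′ on the strand of the gene, from RefSeq on GRCr8; the build behind the deposited counts is not given in the sources used here. In the first pair the capitals mark the letters CCCNNGGG, the core of the motif bound by the Ebf1 protein. In the second pair they mark a stretch that both windows share. The windows are chr1:249805552-249805851 (+) for Dntt, chr11:97642937-97643236 (+) for Igll1, chr11:97630924-97631223 (+) for Vpreb1 and chr11:96514355-96514654 (-) for Vpreb2.
Dntt: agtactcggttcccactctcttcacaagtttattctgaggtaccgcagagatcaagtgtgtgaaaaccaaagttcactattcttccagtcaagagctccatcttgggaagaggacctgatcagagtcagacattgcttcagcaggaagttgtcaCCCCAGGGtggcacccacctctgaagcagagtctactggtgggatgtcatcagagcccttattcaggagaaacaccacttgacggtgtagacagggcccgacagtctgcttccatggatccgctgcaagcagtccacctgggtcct
Igll1: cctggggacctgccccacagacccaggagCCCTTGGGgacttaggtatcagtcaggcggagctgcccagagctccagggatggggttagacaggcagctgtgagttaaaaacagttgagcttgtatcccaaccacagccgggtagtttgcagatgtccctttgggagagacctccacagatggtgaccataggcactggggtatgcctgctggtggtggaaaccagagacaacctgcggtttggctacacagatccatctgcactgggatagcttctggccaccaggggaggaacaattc
Vpreb1: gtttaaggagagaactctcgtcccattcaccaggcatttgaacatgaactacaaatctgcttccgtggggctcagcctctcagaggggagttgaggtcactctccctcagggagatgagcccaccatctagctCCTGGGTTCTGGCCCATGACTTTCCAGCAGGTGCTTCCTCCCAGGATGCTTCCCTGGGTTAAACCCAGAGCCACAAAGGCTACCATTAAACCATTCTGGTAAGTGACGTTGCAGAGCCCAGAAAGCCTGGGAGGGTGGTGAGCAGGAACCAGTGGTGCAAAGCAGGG
Vpreb2: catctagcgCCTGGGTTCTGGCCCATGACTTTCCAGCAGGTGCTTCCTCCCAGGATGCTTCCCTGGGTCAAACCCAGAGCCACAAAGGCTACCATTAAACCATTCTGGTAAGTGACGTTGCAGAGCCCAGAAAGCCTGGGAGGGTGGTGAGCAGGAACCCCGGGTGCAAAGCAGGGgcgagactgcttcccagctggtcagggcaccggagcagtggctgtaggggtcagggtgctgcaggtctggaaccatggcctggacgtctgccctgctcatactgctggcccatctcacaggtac

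The shared stretch is 167 aligned bases long, at positions 134 to 300 of the Vpreb1 window and 10 to 176 of the Vpreb2 window. Of its bases, 163 (97.6%) are equal. It reaches the last base of the Vpreb1 window and begins close to the first base of the Vpreb2 window. The windows thus limit its length, and how far the match runs beyond them was not measured. CCCNNGGG, searched on both strands, was found once in the Dntt and once in the Igll1 window and in neither Vpreb window; 12.4% of 33469 promoters of the same length hold it. The E-box letters CAGGTG or CACCTG were found once each in the Dntt, Vpreb1 and Vpreb2 windows, not in that of Igll1, and in 18.8% of all promoters. Another E-box, CAGCTG, was found once each in the Igll1 and Vpreb2 windows, in neither that of Dntt nor that of Vpreb1, and in 15.1% of all promoters. These are matches of letters and not shown to be sites.

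Vpreb1 was higher and Vpreb2 lower in aged than in young pro-B cells, while their sum was close to equal. Vpreb1 had 947 CPM in aged and 319 in young pro-B cells, a log2 ratio of 1.57 (exact conditional binomial interval 1.45 to 1.70). Vpreb2 had 120 CPM in aged and 761 in young pro-B cells, a log2 ratio of -2.67 (-2.94 to -2.40). The sum of both had 1070 CPM in aged and 1080 in young pro-B cells, a log2 ratio of -0.02 (-0.12 to 0.08). Igll1, the other component of the surrogate light chain, had 627 CPM in aged and 1100 in young pro-B cells, a log2 ratio of -0.82 (-0.94 to -0.69). Vpreb1 and Vpreb2 are near-identical copies, and how the authors' counting divided reads between them is not known, so each copy's value is uncertain. Their sum does not depend on that division, but it would miss reads that were counted for neither copy. Whether such reads were left out, and equally in both libraries, is not known.

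The balance between the copies was followed in single cells with at least 5 UMIs over both genes. Of 100 such aged pro-B cells, none lacked Vpreb1, which allows a share of up to 3%, 53 lacked Vpreb2 and 47 had both, with a median Vpreb1 share of 80% in the cells with both. Of 281 such young pro-B cells, 132 (47.0%) lacked Vpreb1, 18 (6.41%) lacked Vpreb2 and 131 (46.6%) had both, with a median Vpreb1 share of 50%. A group of cells without Vpreb1 was thus present among the young and absent among the aged pro-B cells counted. Over all members Vpreb1 made 88.8% of the UMIs of the pair in aged (86.7 to 90.6) and 29.5% in young pro-B cells (28.1 to 31.0). In cells that held surrogate light chain genes without Dntt, the share was 83.1% in aged and 31.3% in young cells, but UMIs of Vpreb1 had a part in choosing those cells. Chosen by at least 2 UMIs of Igll1 alone, a choice added after the data were seen, they had 82.0% in the aged and 29.1% in the young library.

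**Figure D1:**
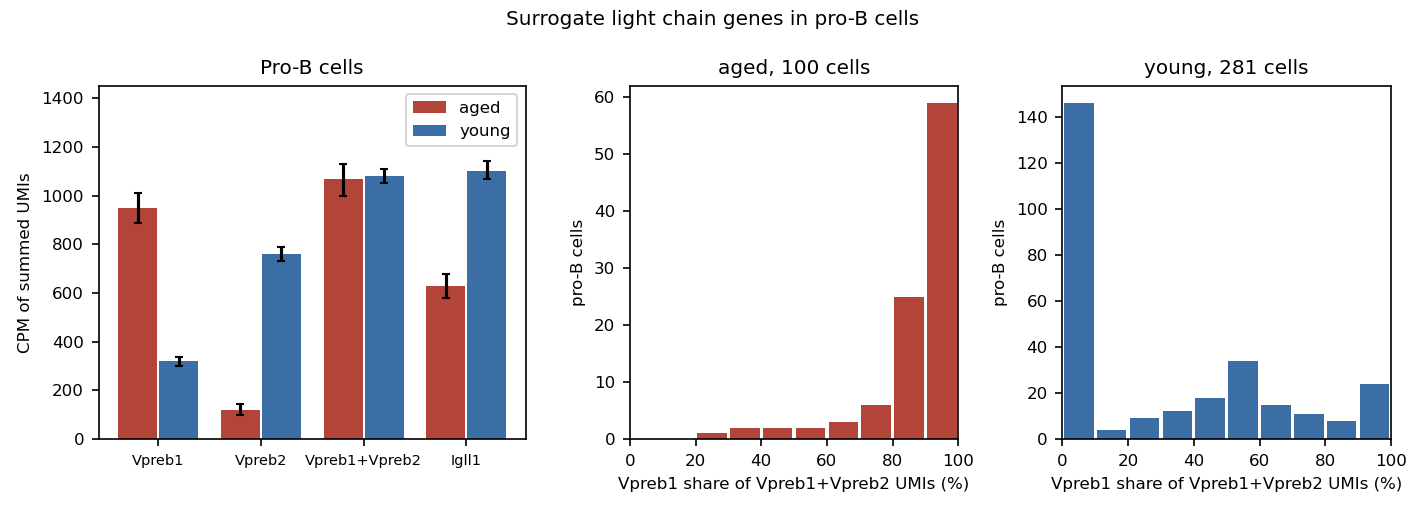
Level of the surrogate light chain genes and the balance of Vpreb1 and Vpreb2 in pro-B cells. Bars show CPM of summed UMIs in aged (left of each pair) and young cells with 95% Poisson intervals, and the histograms count cells with at least 5 UMIs over both copies by the Vpreb1 share of those UMIs, in percent. The sum of the copies is level between 1070 CPM in aged and 1080 in young cells; the young cells include a group at 0% Vpreb1 (132 of 281) that is missing among the 100 aged cells.

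Pro-B cells were next set beside 3 other groups of B lineage cells, under the same quality, Tnfrsf17 and Cd3 limits and all without a Dntt UMI. Surrogate light chain cells had at least 2 UMIs over Igll1 and Vpreb1 (292 aged, 311 young). Rag cells had neither of those, at least 1 UMI of Rag1 or Rag2 and at least 1 of Cd79a or Cd79b (647 aged, 2506 young). Ms4a1 cells had none of these and at least 2 UMIs of Ms4a1, which encodes CD20 of mature B cells (68 aged, 643 young). The genes that chose a group are not findings between groups. Median depth differed as well, at 5533 UMIs in pro-B cells against 12288.5 in surrogate light chain cells in the aged library, and 7961 against 16091 in the young library.

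Erg, Arpp21, Lef1 and Satb1 were higher in pro-B than in surrogate light chain cells in both libraries. Erg had 185 CPM in aged and 166 in young pro-B cells, against 1.01 CPM in aged and 0.559 in young surrogate light chain cells, and it had 0 to 4.28 CPM in Rag and Ms4a1 cells. The log2 ratio of pro-B over surrogate light chain cells was 7.52 in the aged (6.14 to 9.41) and 8.21 in the young library (6.66 to 10.49), with 4 aged and 3 young UMIs in all the surrogate light chain cells. Arpp21, which encodes a cyclic AMP-regulated phosphoprotein, had 220 CPM in aged and 296 in young pro-B cells, against 39.6 CPM in aged and 22.2 in young surrogate light chain cells, log2 ratios of 2.48 in the aged and 3.74 in the young library. Lef1 was graded, with 353 CPM in aged and 425 in young pro-B cells, 157 CPM in aged and 166 in young surrogate light chain cells and 19.0 CPM in aged and 12.7 in young Rag cells. Satb1, a chromatin organiser of lymphocytes, had 83.5 CPM in aged and 67.6 in young pro-B cells, against 15.4 CPM in aged and 13.0 in young surrogate light chain cells.

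Rag1 was high in pro-B cells, low in surrogate light chain cells and high again in the Rag cells, which were chosen for it. It had 238 CPM in aged and 243 in young pro-B cells against 3.53 CPM in aged and 13.4 in young surrogate light chain cells. Other genes of the B programme were higher in the other groups. Bach2, a repressor that acts at the pre-B receptor checkpoint, had 28.5 CPM in aged and 29.9 in young pro-B cells, against 93.7 CPM in aged and 69.3 in young surrogate light chain cells and 289 CPM in aged and 270 in young Rag cells. Cd74, the invariant chain of class II antigen presentation, had 134 CPM in aged and 131 in young pro-B cells, against 9590 CPM in aged and 10500 in young Ms4a1 cells. Granulocytes had 102 CPM of Cd74 in the aged and 194 in the young library, and 50% of its aged pro-B UMIs lay in 1 cell, so its level in pro-B cells was not read as expression. Il7r, the receptor for the cytokine that feeds B cell precursors in rodents, ran the other way, with 57.0 CPM in aged and 37.1 in young pro-B cells, against 28.7 CPM in aged and 25 in young surrogate light chain cells and 4.28 CPM in aged and 1.11 in young Ms4a1 cells.

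**Figure D2:**
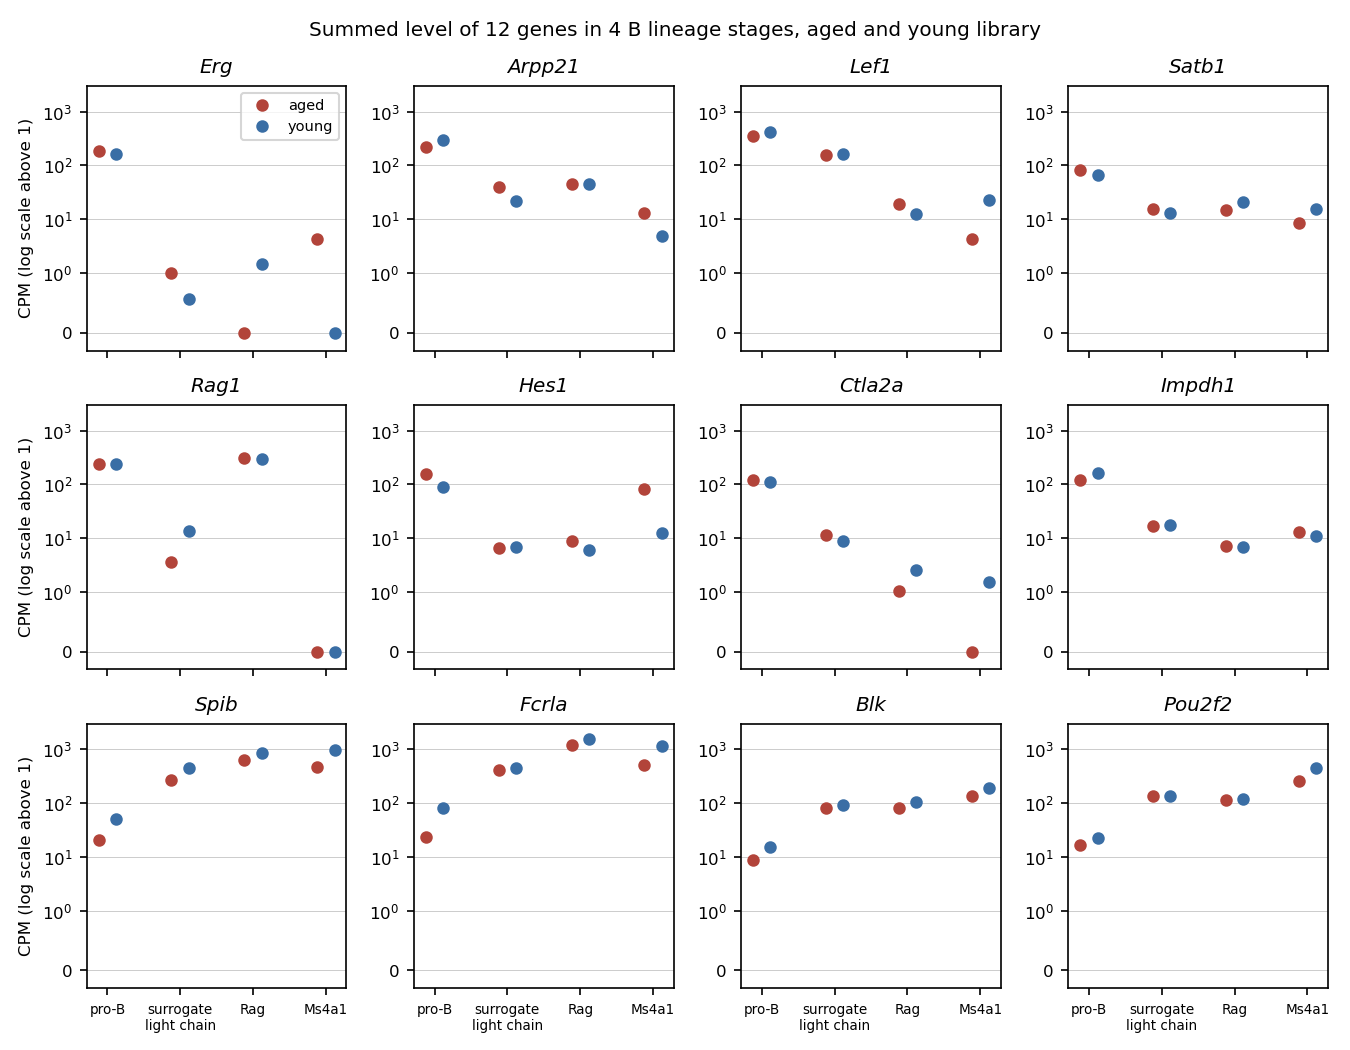
Level of 12 genes in pro-B, surrogate light chain, Rag and Ms4a1 cells, as CPM of summed UMIs, with the aged library left of the young one at each stage. Erg and Arpp21 are highest at the pro-B stage in both libraries, and Spib, Fcrla, Blk and Pou2f2 are lower there than in surrogate light chain cells.

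Among 4719 genes with at least 100 summed UMIs in both libraries, 145 (3.07%) were at least 2-fold higher in pro-B than in surrogate light chain cells in both libraries, 135 (2.86%) were at least 2-fold lower in both, and 5 (0.106%) were past 2-fold in opposite directions. The genes named next are from the 12 with the largest ratios each way. After Erg and Rag1, the higher genes found across many members included Hes1, a repressor induced by Notch signalling, at 158 CPM in aged and 90.9 in young pro-B cells against 6.55 CPM in aged and 6.71 in young surrogate light chain cells. Ctla2a, which in mouse encodes an inhibitor of cysteine proteases, had 120 CPM in aged and 108 in young pro-B cells against 11.6 CPM in aged and 8.75 in young surrogate light chain cells. Impdh1, an enzyme of guanine nucleotide synthesis, had 119 CPM in aged and 161 in young pro-B cells against 17.1 CPM in aged and 17.3 in young surrogate light chain cells. Casp4, an inflammatory caspase, was higher by log2 ratios of 3.52 in the aged and 3.84 in the young library. AC111292.1, Ifitm1 and Serpinb1a completed the higher group, with log2 ratios between 2.78 and 5.40. Mcpt1l4, Mcpt8l3 and Mpo, genes of mast cell and granulocyte granules, also passed the rule, but each rested on few members: Mcpt1l4 was present in 2.67% of aged and 3.47% of young ones, Mcpt8l3 in 4.67% of aged and 7.57% of young ones and Mpo in 9.33% of aged and 19.2% of young ones.

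The lower genes were mostly regulators and signalling proteins of the pre-B and B cell stages. Spib, an ETS transcription factor of B cells, had 20.6 CPM in aged and 50.1 in young pro-B cells against 274 CPM in aged and 455 in young surrogate light chain cells. Granulocytes had 28.8 CPM of it in the aged and 79.6 in the young library, so its level in pro-B cells was no higher than in granulocytes. Pou2f2 (Oct-2) had 16.7 CPM in aged and 22.7 in young pro-B cells against 136 CPM in aged and 137 in young surrogate light chain cells. Irf4, a transcription factor needed to leave the large pre-B stage, had 23.6 CPM in aged and 7.48 in young pro-B cells against 129 CPM in aged and 66.5 in young surrogate light chain cells. Blk, a Src family kinase of B cell receptor signalling, had 8.84 CPM in aged and 15.3 in young pro-B cells against 82.4 CPM in aged and 93.5 in young surrogate light chain cells. Fcrla, an Fc receptor-like protein inside B cells, had 23.6 CPM in aged and 80.6 in young pro-B cells against 405 CPM in aged and 457 in young surrogate light chain cells. Rgs3, Mzb1, Wapl, Palm, Fam107b and Glcci1 had log2 ratios between -2.86 and -1.65. Of the 48 values for the 24 genes so chosen in 2 libraries, none changed sign under 6 alternatives. Since these genes were picked for large ratios in largely the same cells, this is not independent support.

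The gene lists followed the same line. Of 13 early lymphoid genes tested, 6, with Dntt among them, were at least 2-fold higher and 1 lower in pro-B than in surrogate light chain cells in both libraries, with median log2 ratios of 1.01 in the aged and 0.95 in the young library, against -0.08 in the aged and -0.04 in the young library over all genes tested. Of 22 B lineage transcription factors, 2 were higher and 5 lower, with medians of -0.46 in the aged and -0.35 in the young library. Of 23 immediate early genes, 6 were higher and none lower. Of 28 S phase genes none was higher and 9 were lower, and of 28 G2 and M phase genes none was higher and 5 were lower. At least 3 UMIs of the G2 and M phase list were found, after thinning, in 33.6% of aged and 32.5% of young pro-B cells against 87.0% of aged and 84.7% of young surrogate light chain cells. With such cells alone in both stages, a comparison added after the data were seen, 63 genes were higher and 71 lower. Hes1 then had log2 ratios of 4.77 in the aged and 3.26 in the young library, Impdh1 2.54 in the aged and 2.97 in the young, Pou2f2 -2.93 in the aged and -2.42 in the young and Mzb1, a chaperone of antibody-making B cells, -2.31 in the aged and -2.01 in the young.

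Against Rag cells, 142 of 3673 genes tested (3.87%) were at least 2-fold higher in pro-B cells in both libraries, 230 (6.26%) were lower and 1 (0.0272%) differed in opposite directions. Against Ms4a1 cells, 204 of 1725 (11.8%) were higher, 68 (3.94%) were lower and 2 (0.116%) differed in opposite directions. Cell division genes led the contrast with Ms4a1 cells: 12 of 14 G2 and M phase genes and 7 of 10 S phase genes were higher in pro-B cells in both libraries and none was lower. All 4 class II genes tested and 5 of 6 B maturation genes, Ms4a1 among the list, were lower. Over all genes tested against Ms4a1 cells the median log2 ratio was 0.66 in the aged and 0.28 in the young library.

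About 1 pro-B cell in 3 carried the G2 and M phase genes: 49 of 146 aged and 102 of 314 young cells deep enough to be thinned to 2000 UMIs had at least 3 such UMIs, an exact interval of 26.0% to 41.8% in the aged and 27.3% to 38% in the young library. These cells were deeper, with a median of 9202 UMIs against 4469 in the other aged cells, and 14890 UMIs against 6278 in the other young cells. Cells close to the limit numbered 17 in the aged and 39 in the young library, so the split divides a range of values.

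Rag1 showed the widest gap among the B lineage genes compared between these cells. It had 54.8 CPM in aged cells with the G2 and M genes against 411 CPM in the other aged pro-B cells, a log2 ratio of -2.91 (-3.53 to -2.33), and 74.4 CPM against 438 CPM in the young library, a log2 ratio of -2.56 (-2.83 to -2.29). The thinned share of cells with a Rag1 UMI was 12.2% against 48.5% in the aged and 20.6% against 56.6% in the young library. Rag2, its partner in the recombinase, differed less, with log2 ratios of -0.37 in the aged and -0.57 in the young library, and the aged interval included 0. Arpp21 was lower by log2 ratios of -1.14 in the aged and -1.72 in the young library. Foxo1, a transcription factor that activates the RAG genes in mouse, was lower by -1.79 in the aged and -0.99 in the young library. Blnk, an adaptor of the pre-B receptor, and Cd24, a surface protein of precursors, had log2 ratios within 0.26 of 0. Myc, the growth regulator, was higher by 1.14 in the aged and 0.86 in the young library.

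**Figure D3:**
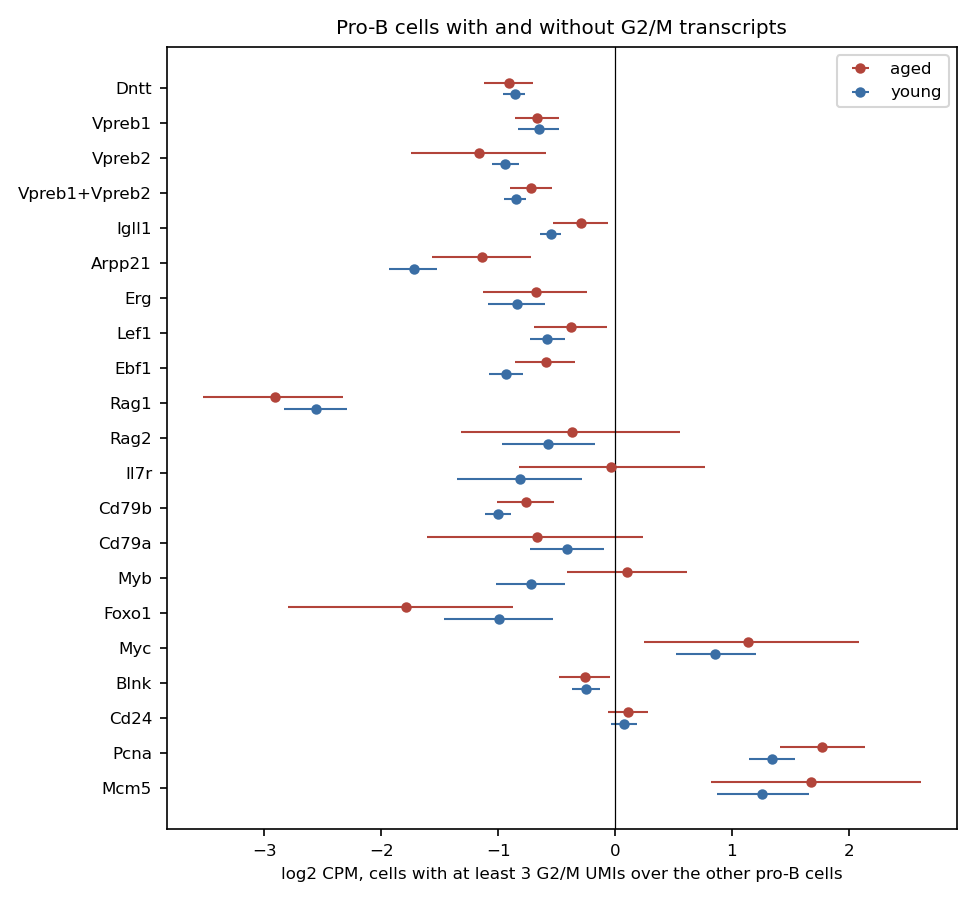
Log2 ratio of CPM in pro-B cells with at least 3 UMIs of G2 and M phase genes over the other pro-B cells, for each gene, with the aged library above the young one and 95% intervals of counting error. Rag1 lies lowest in both libraries, at -2.91 in aged and -2.56 in young cells, and Blnk and Cd24 lie close to 0.

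Most genes differed little between aged and young pro-B cells. Among 4776 genes with at least 100 summed UMIs, 59 (1.24%) were at least 2-fold higher and 122 (2.55%) at least 2-fold lower in the aged library, 181 (3.79%) in all, and the median log2 ratio was -0.082. Many of the largest ratios rested on 1 cell: for 6 of the 12 highest and 11 of the 12 lowest genes, over 50% of the UMIs of the higher library came from a single member. Igfbp6, a binding protein of insulin-like growth factors, had a log2 ratio of 5.71, with 95.7% of its aged UMIs in 1 cell. The granule peptide genes RatNP-3b, Defa5 and Np4 had ratios of 4.53, 4.08 and 3.98 and at least 97.2% of their aged UMIs in 1 cell; without the highest cell of each library the ratios were -0.55, -0.92 and -2.48. Ccn3, a matricellular protein gene, had a ratio of 3.84 and -2.04 without that cell. Tnni2, a troponin of fast muscle, had a ratio of -2.94 and 0.55 without it. Ctsg, a granule protease, had a ratio of 4.28 with 49.3% of its aged UMIs in 1 cell, and Rgs1, a regulator of G protein signalling, 3.4 with 58.6%. Of the lowest genes, the matrix and other stromal genes Sparc, Mgp, Ucma, Myoc, Col3a1, Col1a1 and Ecrg4 had ratios between -5.49 and -2.78, the cartilage gene Snorc had -7.26 (-12.56 to -4.77, from 1 aged UMI), and Col2a1 and Chad had no UMI in the aged members and were lower there by log2 ratios of at least 4.92 and 4.82 (against a floor of 3 counts).

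The differences were therefore read in 2666 genes found in at least 25% of the members of the higher library, a condition added after the values were seen; 32 (1.20%) were at least 2-fold higher and 37 (1.39%) at least 2-fold lower in aged cells. The 12 highest and 12 lowest of these include Vpreb1 and Vpreb2, and Sparc, Col3a1 and Col1a1, named above. All of them kept their sign under the 15 alternatives tried. They were picked for large ratios and the alternatives reused largely the same cells, so a kept sign is not independent support. The condition did not remove every gene carried by 1 cell: Sparc had 55.5%, Col3a1 85.9% and Col1a1 81.2% of their young UMIs in 1 member.

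Batf, RT1-CE5, Ifi27 and RT1-A1 had the highest ratios of these. RT1-A1, a classical class I molecule, had 446 CPM in aged and 83.2 in young pro-B cells, a log2 ratio of 2.42 (2.21 to 2.64). RT1-CE5, another class I gene, had 103 CPM in aged and 16.7 in young cells, a ratio of 2.63 (2.15 to 3.12). Ifi27, an interferon-inducible gene, had 800 CPM in aged and 130 in young cells, a ratio of 2.63 (2.46 to 2.80). The class I gene RT1-N2 lay on the other side, with 5.89 CPM in aged and 97.9 in young cells, a ratio of -4.05 (-5.51 to -2.92). These genes differed in the same direction in other cells: the log2 ratio of RT1-A1 was 1.83 in surrogate light chain cells, 1.49 in Rag cells and 3.71 in granulocytes, that of Ifi27 was 3.29, 2.56 and 2.80 in the same groups, and that of RT1-N2 was -3.89 in surrogate light chain and -3.18 in Rag cells. The RT1 class I genes form a polymorphic family of similar copies, so the assignment of their reads is uncertain, and strain and age cannot be told apart.

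The other higher genes were named by size alone and stand for no list. Nfkb2, the p100 precursor subunit of NF-kappa-B, had 59.9 CPM in aged and 16.4 in young pro-B cells, a log2 ratio of 1.87. Birc3, a ubiquitin ligase that limits cell death, had 77.6 CPM in aged and 21.9 in young cells, a ratio of 1.83. Nfkbid, an atypical IkappaB protein, had 104 CPM in aged and 36.8 in young cells, a ratio of 1.5, and Zc3h12a, a ribonuclease that degrades inflammatory messages, had 64.8 CPM in aged and 20.7 in young cells, a ratio of 1.65. Batf, an AP-1 family transcription factor, had 73.7 CPM in aged and 11.2 in young cells, a ratio of 2.71 (2.14 to 3.31), and Cd83, an activation protein of B cells, had 69.7 CPM in aged and 15.5 in young cells, a ratio of 2.17 (1.63 to 2.70). In surrogate light chain cells the ratio was 1.13 for Batf, 1.04 for Cd83, 1.21 for Nfkb2 and 1.46 for Birc3. Rilpl2 had 491 CPM in aged and 176 in young pro-B cells, a ratio of 1.48, and Ankrd33b had 122 CPM in aged and 40.6 in young cells, a ratio of 1.59.

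On the lower side, Pde6h, known as an inhibitory subunit of the photoreceptor phosphodiesterase, had 68.8 CPM in aged and 226 in young pro-B cells, a log2 ratio of -1.72, and it was lower in surrogate light chain cells as well, at -1.70. Wdr91, a regulator of endosomes, had 46.2 CPM in aged and 151 in young pro-B cells, a ratio of -1.71, against -0.85 in surrogate light chain and -0.17 in Rag cells. Rflnb, a filamin-binding protein gene, had 37.3 CPM in aged and 115 in young pro-B cells, a ratio of -1.62. Lipa, the lysosomal acid lipase, had 17.7 CPM in aged and 60.2 in young cells, a ratio of -1.77. Tubb4b, a beta tubulin, had 78.6 CPM in aged and 216 in young cells, a ratio of -1.46, and Rbm6, an RNA-binding protein gene, 17.7 CPM in aged and 50.9 in young cells, a ratio of -1.53. Mfge8, a secreted protein that binds dying cells, had 37.3 CPM in aged and 216 in young cells, a ratio of -2.53, with 41.0% of its young UMIs in 1 cell.

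**Figure D4:**
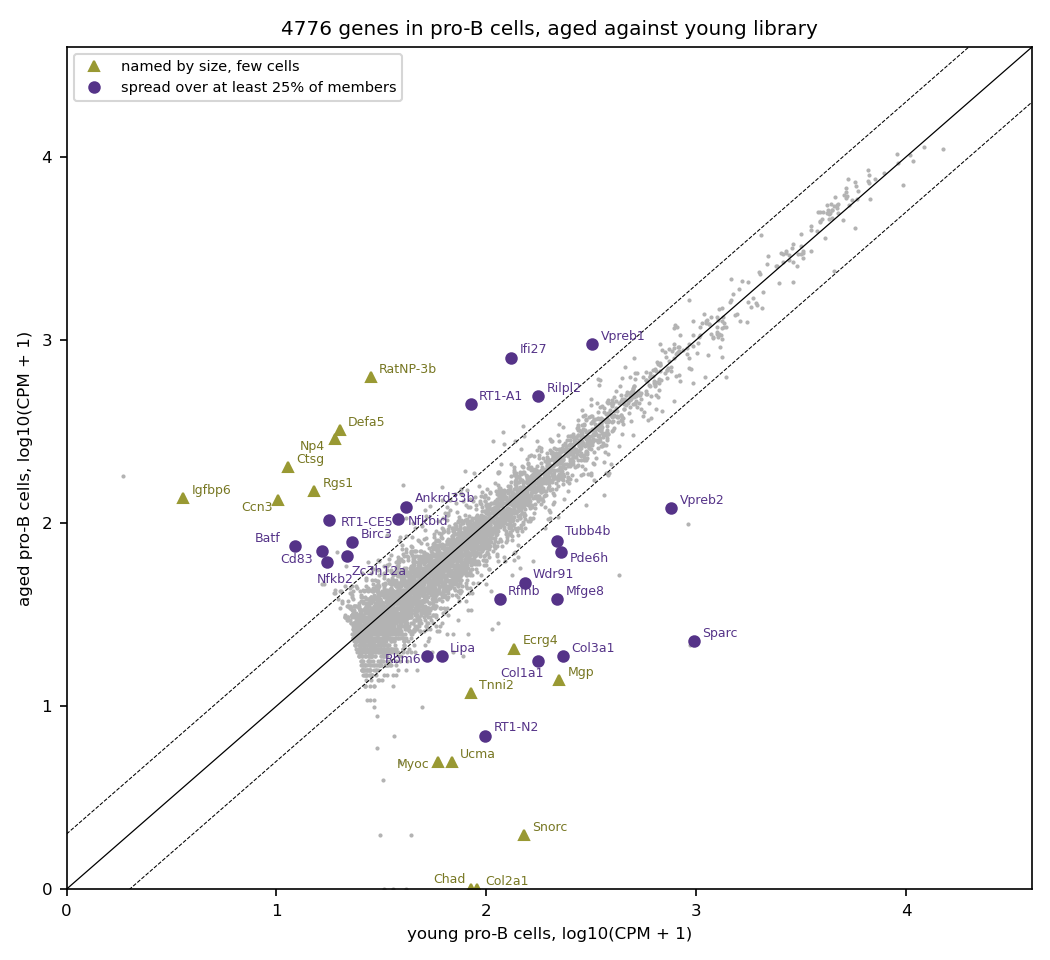
CPM of summed UMIs of 4776 genes in aged (vertical axis) and young pro-B cells (horizontal axis), both as log10(CPM + 1), with dashed lines at a 2-fold difference. Marked dots are genes with a UMI in at least 25% of the members of the higher library, and triangles are genes named by size that were found in fewer members. Of the dots, Sparc, Col3a1 and Col1a1 still have most of their young UMIs in 1 cell. RT1-A1, Ifi27 and Vpreb1 lie above the upper line and Vpreb2 and RT1-N2 below the lower one.

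Gene lists were read against the shares over all genes tested, 1.24% higher and 2.55% lower in aged cells, with a median of -0.082; a count of 0 or 1 gene was not read as a result about its list. None of 15 early lymphoid genes tested was 2-fold apart, with a median log2 ratio of -0.04. Rag1 had 238 CPM in aged and 243 in young cells. None of 13 recombination genes was 2-fold apart (median -0.25); Hmgb1, a cofactor of the RAG complex, came closest, at 186 CPM in aged and 371 in young cells. Of 11 pre-B receptor genes, Vpreb1 was higher and Vpreb2 and Cd79a lower. Cd79a, a signalling chain of the receptor, had 45.2 CPM in aged and 98.1 in young cells. Its log2 ratio was also below 0 in the other groups, at -1.11 in surrogate light chain, -0.77 in Rag and -1.38 in Ms4a1 cells. Of 19 B lineage transcription factors tested, Irf8 passed 2-fold, at 43.2 CPM in aged and 21.3 in young cells, with 47.7% of its aged UMIs in 1 cell and a log2 ratio of 0.74 without the highest cell of each library. Spib passed 2-fold on the lower side, at 20.6 CPM in aged and 50.1 in young cells, but both values lay below those of granulocytes given above and were not read as expression. In the IL-7 and JAK-STAT list 1 of 8 genes passed 2-fold, Ccnd3, the cyclin of dividing B precursors, at 186 CPM in aged and 384 in young cells. Granulocytes had 265 CPM of Ccnd3 in the aged and 356 in the young library, so the aged pro-B level lay below that of granulocytes.

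None of 26 S phase genes passed 2-fold (median -0.29), and 3 of 28 G2 and M phase genes were lower (median -0.37): Plk1, a mitotic kinase, at -1.01, Nusap1, a spindle protein, at -1.03 and Ndc80, a kinetochore subunit, at -1.36. The thinned share of cells with at least 3 such UMIs was 33.6% in aged and 32.5% in young pro-B cells.

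Of 12 class I genes tested, 2 were higher and none lower: RT1-A1 and Tap2, a peptide transporter subunit, at 123 CPM in aged and 52.7 in young cells. B2m, the shared light chain of class I molecules, had 3750 CPM in aged and 2040 in young cells, a log2 ratio of 0.88. The list as a whole held 0.663% of the UMIs of aged and 0.454% of those of young members. B2m alone gave 3818 of its 6749 aged UMIs and 7090 of its 15783 young UMIs. The median log2 ratio of the 12 class I genes tested was 0.06, and RT1-N2, lower in aged cells as given above, was not on the list. Of 4 class II genes, RT1-Ba was higher, at 68.8 CPM in aged and 18.4 in young cells, where granulocytes had 21.0 CPM in the aged and 18.6 in the young library. Of 12 interferon response genes, Ifi27 was higher and none was lower (median 0.06). Of 23 immediate early genes, Gadd45b was higher, at 187 CPM in aged and 86.1 in young cells, while Fos, at 125 CPM in aged and 296 in young cells, and Fosb, at 141 CPM in aged and 362 in young cells, were lower; Nfkbia, at 0.72, Rel, at 0.77, and Nfkbiz, at 0.58, did not reach 2-fold. Hspa8, a constitutive chaperone, was the only heat shock gene of 10 past 2-fold, at 627 CPM in aged and 1380 in young cells. Gadd45a, a damage-response gene, was the only one of 11 p53 and arrest genes, at 279 CPM in aged and 136 in young cells, with a log2 ratio of 0.89 without the highest cell of each library. Several of these gaps were not particular to pro-B cells. In surrogate light chain cells the log2 ratio was -1.25 for Hspa8, -0.79 for Fos, 1.09 for Gadd45b and 0.66 for B2m. In granulocytes it was -0.67, -1.55, 1.04 and 0.96 for the same genes. Tap2 was at 0.88 in surrogate light chain cells and -0.54 in granulocytes. None of 32 nuclear oxidative phosphorylation genes was 2-fold apart (median -0.01), nor was any of 9 glycolysis genes (median -0.20). In the niche receptor list 1 of 11 genes was lower, Cd9, a tetraspanin, at 23.6 CPM in aged and 68.5 in young cells (674 CPM in aged and 460 in young granulocytes), while Cxcr4, the receptor that holds precursors in the marrow, had 250 CPM in aged and 174 in young cells.

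Markers of other cell types moved with these differences, and their part in the results was not tested. Granulocyte genes held 0.451% of the UMIs of aged and 0.280% of those of young members, with 5 of 11 genes tested higher and 1 lower in the aged ones; of the 5, Mpo alone was past 2-fold on the higher side without the highest cell of each library. Stromal genes held 0.0270% of UMIs in aged and 0.190% in young members, with 1 of 7 tested higher and 6 lower; Col2a1 was at 0 in the aged members. Erythroid genes held 0.0244% of UMIs in aged and 0.144% in young members. Most of these UMIs were of Hba-a1 and Hba-a2, and the other genes of the list did not all go in that direction. Hba-a1 had 97.2 CPM in aged and 916 in young members, with 53.5% of the young UMIs in 1 cell. Macrophage genes held 0.0107% in aged and 0.00984% in young members, T and NK cell genes 0.00864% in aged and 0.00340% in young ones, plasma cell genes 0.0210% in aged and 0.0257% in young ones, and progenitor and mast cell genes 0.0176% in aged and 0.0114% in young ones. Without members that carried granulocyte or stromal genes, which left 135 aged and 276 young cells, 34 genes were at least 2-fold higher and 104 at least 2-fold lower.

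**Figure D5:**
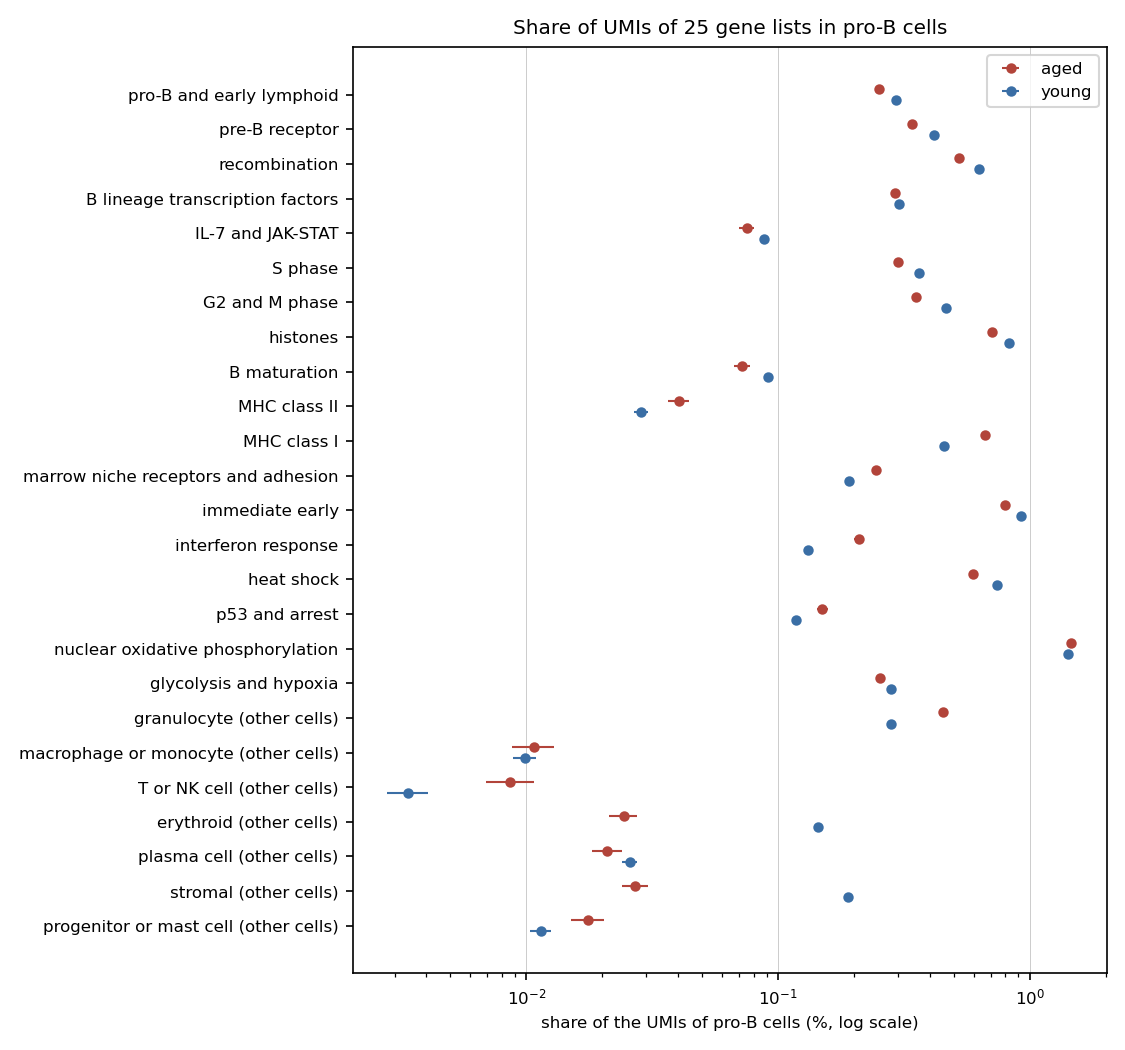
Share of the summed UMIs of pro-B cells held by each of 25 gene lists, in percent on a log axis, with the aged library above the young one. The class I list, in which B2m holds the most UMIs, is at 0.663% in aged and 0.454% in young cells. The stromal and erythroid lists, from other cell types, are lower in aged than in young cells.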

How the data were processed

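Pro-B cells were studied in droplet libraries of rat meniscus, 1 aged and 1 young, captured with 10x Genomics 3' chemistry per the labels' protocols. The authors deposited whole-number UMI counts per gene and barcode, with no normalization; Cell Ranger 6.1.1 is named in the submitters' processing notes, and the genome build is not given in the sources used here. Both count matrices cover the same 25399 genes, with symbols taken from the files. Library totals were 47228750 UMIs (aged) and 65051972 UMIs (young); precision is given as exact Poisson intervals for CPM, Clopper-Pearson intervals for shares and conditional binomial intervals for log2 ratios, which cover counting error only.

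Raw counts were summed over the pro-B cells of each library and over 3 other B lineage groups, scaled to 1000000 UMIs (CPM) and compared as log2 ratios. A single library per age allowed no test between the ages; genes were counted by size, at least 2-fold with at least 100 summed counts. A gene at 0 was set against a floor of 3 counts. Members, gene lists and thresholds were chosen with earlier results of these data known. Named genes were the 12 largest ratios each way with at least 50 CPM in the higher group, leaving out mitochondrial, ribosomal protein, haemoglobin, immunoglobulin and uncharacterised genes, besides the markers and list members; genes of the last kinds that are named, and the genes spread over at least 25% of members, were chosen after their values were seen. The 25 lists hold 521 entries. Values of a few of these genes are not reported here.

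Granulocytes, cells with at least 5% of UMIs from S100a8, S100a9, Camp, Ngp and Ltf, served as the background of free RNA. The doublet caller Scrublet (scanpy 1.11.5) marked 0 aged cells and 3 young cells, which is too few for a call that worked. Doublets were therefore kept, and the cells in the top 8% of scores were dropped as an alternative. Alternatives also changed the Dntt minimum, the cell limits, the scaling (edgeR 4.0.16 TMM and DESeq2 1.42.0 size factors, used for scaling alone), thinning and the count minimum; those without a Cd3 limit, without members carrying other cells' genes, without the highest cell of each gene, with Vpreb2 counted, with Igll1 alone and with G2 and M cells alone were chosen after seeing the data. Promoter sequences came from RefSeq (GRCr8). Scripts, tested on simulated data, ran in R 4.3.3 and Python 3.11.15 with pandas 2.3.3, scipy 1.17.1 and numpy 2.4.6.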

Additional observations from a re-analysis of the deposited data

Results flagged for a closer look

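Cells with Dntt and Cd3 transcripts lay outside the pro-B rule and appeared in both libraries, in data that the comparisons did not use. With at least 2 Dntt UMIs, no Tnfrsf17 UMI and at least 2 UMIs over the Cd3 genes, there were 6 such cells in the aged and 40 in the young library. A surrogate light chain UMI was found in 6 of the aged and 39 of the young cells, and a Cd79b UMI in 5 aged and 39 young ones. Most of the Cd3 signal was Cd3g, with 10 UMIs summed over the aged and 95 over the young cells, against 3 aged and 16 young UMIs of Cd3d and 0 aged and 16 young UMIs of Cd3e. Ptcra, the pre-T receptor chain, had 0 UMIs in the aged and 1 in the young cells. Their median depth was 6316 UMIs in the aged and 15308 in the young library. Counted without the Cd3 limit, Cd3g had 29.3 CPM in aged and 35.1 CPM in young pro-B cells and 38.5 CPM in aged and 71.5 CPM in young surrogate light chain cells, against 2.03 CPM in aged and 6.91 CPM in young granulocytes. The thinned share of cells with a Cd3g UMI was 9.87% in aged and 6.21% in young pro-B cells, against 0.152% in aged and 0.738% in young granulocytes.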

How the results depend on the processing

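The share of pro-B cells over passing cells, 2.47% in the aged and 3.61% in the young library, was 3.29% in aged and 4.66% in young with a Dntt minimum of 1, 1.96% in aged with a minimum of 3, 4.11% in aged and 4.52% in young with 1000 genes and 10% mitochondrial UMIs as limits, 1.78% in aged and 2.82% in young on thinned cells, 4.88% in aged and 4.89% in young over B lineage cells, and 4.07% in young without a Cd3 limit. The counts of 59 genes higher and 122 lower in aged pro-B cells became 15 and 28 on thinned cells and 243 and 637 with a minimum of 20 counts, since these settings change how many genes are counted, and 530 and 973 with no minimum. A Dntt minimum of 1 gave 206 lower genes; cells with fewer than 3 G2 and M UMIs gave 32 higher genes and leaving out members with granulocyte or stromal genes gave 34, with fewer cells in both. The counts of 145 genes higher and 135 lower than in surrogate light chain cells became 27 higher on thinned cells, 472 and 212 with a minimum of 20 counts and 63 and 71 in G2 and M cells alone. Of 116 gene, list or share results, 110 kept their sign under every alternative tried among 22 settings. The genes named by size were picked for large ratios in largely the same cells, so their kept signs are not independent support. The sign changed for 6 genes, each carried by few cells. With a Dntt minimum of 1, RatNP-3b was at -0.20 and Defa5 at -0.17. With a minimum of 3, RatNP-3b was at -0.47, Ctsg at -0.79, Defa5 at -0.76, Np4 at -2.60 and Tnni2 at 0.85. With the stricter cell limits, RatNP-3b was at -1.06, Defa5 at -1.05 and Np4 at -2.59, and with fewer than 3 G2 and M UMIs they were at -0.48, -1.16 and -3.40. Without members carrying granulocyte or stromal genes, RatNP-3b was at -0.70, Ctsg at -0.35, Defa5 at -0.87, Np4 at -2.35, Ccn3 at -0.35 and Tnni2 at 0.94. Without the highest cell of each gene, RatNP-3b was at -0.55, Defa5 at -0.92, Np4 at -2.48, Ccn3 at -2.04 and Tnni2 at 0.55. No paired analysis was possible because each age has 1 library and no value comes from a test; for the same reason no replicate could be left out. Depth limits genes under 100 summed counts, more so among the 150 aged members.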

Other observations

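LOC306079, an uncharacterised gene, had 179 CPM in aged and 0.863 CPM in young pro-B cells, a log2 ratio of 7.69 (6.12 to 9.98), from 182 aged and 3 young UMIs. Its ratio was 7.86 in surrogate light chain cells, 7.82 in Rag cells and 8.53 in Ms4a1 cells, so the gap was of similar size in every B lineage group measured. Igh-6, the immunoglobulin gene of that symbol, had 44.2 CPM in aged and 2.88 CPM in young pro-B cells. Granulocytes had 222 CPM in the aged and 3.77 CPM in the young library, above the pro-B level in both. Of the aged granulocyte UMIs of Igh-6, however, 76.0% lay in 1 cell. The thinned share of cells with an Igh-6 UMI ran the other way, at 5.62% in aged granulocytes and 10.3% in aged pro-B cells. The aged pro-B UMIs of Igh-6 were spread over 34 members (22.7%), with 6.67% of them in the highest cell. Whether the Igh-6 level in pro-B cells came from free RNA was not tested, and it was not read as expression.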
